A study of Homo sapiens and Homo sapiens
Mus musculus and Mus musculus with 9 samples.

Results

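The 38 nuclear complex I subunit genes were taken from the deposited table as its protein-coding rows whose symbol is NDUFA, NDUFB, NDUFC, NDUFS or NDUFV followed by a number, or NDUFAB1. They are 38 of 41713 genes in the table and 38 of its 19939 protein-coding genes, lie on 18 chromosomes, and were all listed by each of the 3 pipelines that the study ran to separate human from mouse reads. The study sequenced polyadenylated RNA of C4-2B, a human prostate cancer cell line, cultured alone (3 libraries) or mixed with MC3T3-E1 mouse osteoblasts at a ratio of 1 to 30 (co-culture, 3 libraries), and of MC3T3-E1 cultured alone (3 libraries, not analysed here). Both lines are labelled wild type, and each group rests on these lines only. The labels give alpha-MEM with fetal bovine serum for all cells, and the study's methods name RPMI medium for keeping C4-2B and the osteoblasts' medium, alpha-MEM, for the co-culture. The table gives for each gene and pipeline the authors' mean normalized count, which is the read count divided by a size factor for each library and averaged over the libraries of C4-2B alone and of the co-culture together. The mean therefore belongs to neither group, it comes with no SD, and the authors' own comparison of C4-2B alone with the co-culture, which the table also holds, was not used here. The values below answer how high each subunit gene was read in these libraries and how far that level depended on the pipeline.

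Complex I (NADH:ubiquinone oxidoreductase) is the first enzyme of the respiratory chain. It passes electrons from NADH through a flavin and a row of iron-sulfur clusters to ubiquinone and pumps protons across the inner mitochondrial membrane. Its matrix arm holds the NADH-oxidising N module and the ubiquinone-reducing Q module, whose core subunits are encoded in the nucleus, and its membrane arm holds the proton pumps, whose core subunits are encoded by mitochondrial DNA. The remaining nuclear subunits are accessory and surround that core.

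The sequences that the results below turn on are of 2 kinds. The first kind is coding exons that belong wholly to the subunit gene and also to an exon of another gene on the same strand (GENCODE release 44, GRCh38), which is the feature that went with the largest differences between pipelines. In each of the 3 exons printed all bases are shared and are in capitals. They are exon 2 of 5 of NDUFA13 (chr19:19526182-19526260, plus strand), exon 4 of 5 of NDUFB8 (chr10:100526399-100526554, minus strand) and exon 3 of 4 of NDUFA11 (chr19:5896453-5896575, minus strand).
NDUFA13: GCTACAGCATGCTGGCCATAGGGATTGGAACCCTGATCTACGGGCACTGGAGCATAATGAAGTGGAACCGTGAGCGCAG
NDUFB8: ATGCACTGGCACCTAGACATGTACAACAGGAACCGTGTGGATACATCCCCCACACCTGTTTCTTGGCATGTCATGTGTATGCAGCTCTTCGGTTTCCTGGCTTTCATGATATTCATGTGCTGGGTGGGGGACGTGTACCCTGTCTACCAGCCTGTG
NDUFA11: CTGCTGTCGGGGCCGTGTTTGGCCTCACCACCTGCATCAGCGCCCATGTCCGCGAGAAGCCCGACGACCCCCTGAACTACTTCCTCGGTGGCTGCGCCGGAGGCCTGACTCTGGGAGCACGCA

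The second kind is the longest stretch of coding sequence that a human subunit transcript holds in common with mouse transcripts (GENCODE release M21), shown because these bases alone do not tell the species apart. Capitals mark the shared run and lower case marks 10 flanking bases of the human transcript on either side, cut short where the coding sequence of NDUFAB1 ends. NDUFAB1 (chr16:23582287-23582356, minus strand, exon 4 of 5), NDUFS4 (chr5:53683143-53683218, plus strand, exon 5 of 5), NDUFS3 (chr11:47582382-47582459, plus strand, exon 6 of 7) and NDUFA12 (minus strand, across the junction of exons 3 and 4) differed between the read-filtering pipelines. NDUFV1 (plus strand, across exons 3 and 4) did not differ by over 10% and is shown beside them. The shared runs are 53 bases in NDUFAB1, 56 in NDUFS4, 58 in NDUFS3, 47 in NDUFA12 and 77 in NDUFV1.
NDUFAB1: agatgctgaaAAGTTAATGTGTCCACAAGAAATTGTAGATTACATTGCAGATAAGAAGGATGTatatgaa
NDUFS4: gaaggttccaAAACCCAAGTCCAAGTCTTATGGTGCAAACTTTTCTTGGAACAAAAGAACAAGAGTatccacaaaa
NDUFS3: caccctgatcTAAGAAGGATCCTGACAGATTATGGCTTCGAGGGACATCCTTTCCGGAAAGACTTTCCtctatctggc
NDUFA12: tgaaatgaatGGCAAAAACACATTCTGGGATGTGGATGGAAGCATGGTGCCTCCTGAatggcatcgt
NDUFV1: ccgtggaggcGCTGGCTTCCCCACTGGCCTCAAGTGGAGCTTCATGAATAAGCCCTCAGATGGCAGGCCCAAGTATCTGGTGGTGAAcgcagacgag

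The libraries behind each mean differed widely in depth, which here means the reads counted in human genes and not all reads sequenced. From the lowest means, 1 read of a library added between 0.0281 and 1.53 to a mean with Xenome, which gives size factors of 5.93, 5.31 and 4.86 for 3 libraries and of 0.427, 0.145 and 0.109 for the other 3. These libraries were not assigned to groups, since the means do not name them. Since every library has equal weight, reads of the shallowest libraries carry most of the counting error, which was 0.634% to 8.16% (standard error) of the subunit genes' Xenome means if a gene's level was the same in all libraries. This error covers counting only, and the spread between replicates is not known from a pooled mean. The C4-2B label was checked against 8 prostate markers, of which 7 were listed and analysed. These 7 had high means with Xenome, from 4603 for TMPRSS2 to 51038 for KLK3. Of 8 osteoblast markers, COL1A1 (3384), RUNX2 (411) and COL1A2 (45.0) had Xenome means above 40, and the other 5 were under 5. COL1A2 was listed at 264 by XenofilteR and 222 by Kallisto. The part of mouse RNA in the subunit genes' means was not tested.

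The median subunit gene had a mean normalized count of 3178 with Xenome, 3422 with XenofilteR and 3637 with Kallisto. Counts grow with transcript length, so genes were set against each other per kilobase of the canonical transcript. With Kallisto the level per kilobase was 4090 at the median and lay between 304 and 19822, a range of 65.1 times. With Xenome it was 3425 at the median and lay between 137 and 20169, a range of 148 times. NDUFB4 was the highest in both (19822 and 20169 per kilobase) and was followed in both by NDUFS5 (15388 and 15833), and both code for accessory subunits of the membrane arm. The third place was taken by NDUFV2 with Kallisto (11331) and by NDUFB10 with Xenome (10406). NDUFA9 (304), NDUFS1 (714) and NDUFA10 (829) were lowest per kilobase with Kallisto. The annotated canonical transcripts of these 3 genes have 8356, 11660 and 4855 bases, and the length of the isoform present in these cells was not measured.

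**Figure D1:**
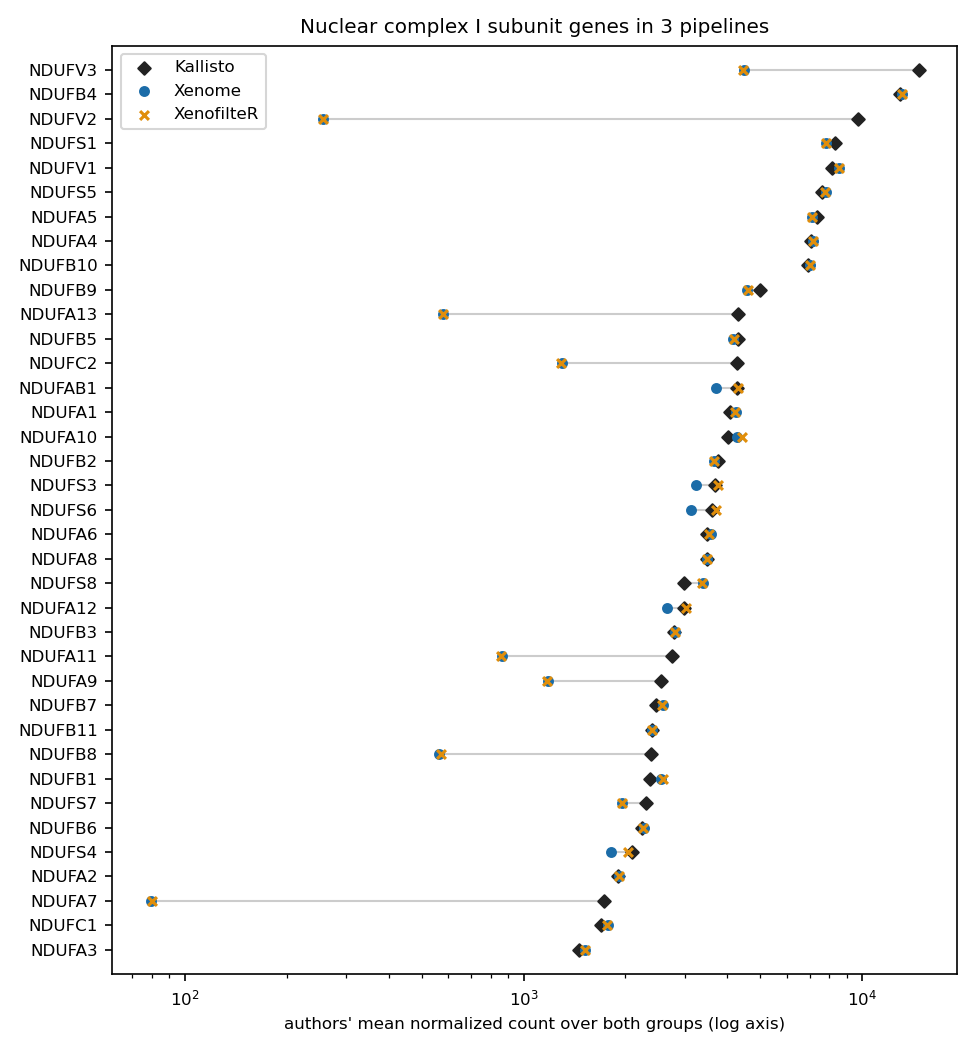
Mean normalized count over both groups (log axis) of 37 nuclear complex I subunit genes with Kallisto (diamonds), Xenome (circles) and XenofilteR (crosses), ordered by the Kallisto mean and not corrected for length. The points lie close together for most genes, and 8 genes have a long grey line between the Xenome and Kallisto means, the longest for NDUFV2 (256 and 9711) and NDUFA7 (79.3 and 1727).

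Of the nuclear core subunits of the N module, NDUFV1, which carries the flavin and the NADH site, had means of 8537 with Xenome, 8554 with XenofilteR and 8162 with Kallisto. NDUFS1, which carries several iron-sulfur clusters, had 7840, 7834 and 8328 in the same order. The third, NDUFV2, which carries an iron-sulfur cluster beside the flavin, had 256, 256 and 9711. Per kilobase, Kallisto gave 5232 for NDUFV1, 714 for NDUFS1 and 11331 for NDUFV2, and Xenome gave 5472, 672 and 298. NDUFV2 was thus the highest of the 3 per kilobase with Kallisto and the lowest with Xenome.

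In the Q module, NDUFS7, which holds the last cluster before ubiquinone, had 1953, 1951 and 2303 with Xenome, XenofilteR and Kallisto. NDUFS8, a subunit with a pair of iron-sulfur clusters, had 3388, 3359 and 2977, the largest fall from Xenome to Kallisto among the 38 genes. NDUFS3, which links the arm's modules, had 3232, 3747 and 3664, so XenofilteR and Kallisto lay together above Xenome. Per kilobase these genes lay between 3039 and 4099 with Kallisto and between 2576 and 4597 with Xenome.

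Among the 9 accessory genes of the matrix arm, levels per kilobase with Kallisto ran from 304 (NDUFA9) to 6968 (NDUFS6) with a median of 2978. NDUFA5 had 7105, 7104 and 7376 with Xenome, XenofilteR and Kallisto, NDUFA6 had 3574, 3522 and 3478, and NDUFA2 had 1916, 1912 and 1897. These 3 genes differed little between pipelines. NDUFV3, NDUFA7 and NDUFA9 (3 of 9) had a Kallisto mean over 1.5 times the Xenome mean after centring, against 9.37% of all protein-coding genes compared. NDUFS6, NDUFS4 and NDUFA12 (3 of 9) had a XenofilteR mean over 10% above the Xenome mean, against 1.96%.

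Among the 20 accessory genes of the membrane arm, levels per kilobase with Kallisto ran from 829 (NDUFA10) to 19822 (NDUFB4) with a median of 4681. NDUFB4 had 13130, 13106 and 12904 with Xenome, XenofilteR and Kallisto, NDUFS5 had 7837, 7788 and 7617, and NDUFB10 had 7024, 7034 and 6896. NDUFA1, which lies on the X chromosome as NDUFB11 does, had 4244, 4219 and 4071. NDUFB11 had 2396, 2396 and 2391. Of the genes of this group that differed by less than 1.5 times between Kallisto and Xenome, the lowest Kallisto means were those of NDUFA3 (1523, 1521 and 1456) and NDUFC1 (1782, 1769 and 1689). In this group, 4 of 20 genes (NDUFA11, NDUFA13, NDUFB8 and NDUFC2) had a Kallisto mean over 1.5 times the Xenome mean, against the same 9.37%. NDUFAB1, the mitochondrial acyl carrier protein, had 3708, 4304 and 4275, and NDUFA4, which is now counted as a subunit of complex IV, had 7157, 7153 and 7068.

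Kallisto assigns reads to transcripts of a joint human and mouse set, whereas the other pipelines count the reads kept as human in gene annotations after alignment to the genome. The Kallisto mean was compared with the Xenome mean after the median difference over 11580 protein-coding genes with a mean of at least 50 in both (0.028 on the log2 scale, or 1.02-fold) was subtracted. Over the 38 genes the median difference was -0.01 on the log2 scale. The Kallisto mean was over 1.5 times the Xenome mean in 8 of 38 genes (21.1%), against 9.37% of all protein-coding genes compared, and under it by over 1.5 times in 0 of 38, against 0.717%. The same 8 genes were found with XenofilteR in place of Xenome. The 8 genes had folds of 2.12 and more and the other 30 lay between 0.861 and 1.16, so no gene was near the threshold. These counts describe 1 set of means from the same reads, and no test was made.

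NDUFV2 had the largest difference, at 37.3-fold after centring. Of the 857 bases of its canonical transcript, 90.0% also lie in exons of a long non-coding RNA gene on the same strand. This gene (ENSG00000265257, 771 shared bases) has no mean with any of the 3 pipelines, so whether the authors counted it is not known. NDUFA7, an accessory subunit of the matrix arm, was 21.4-fold higher with Kallisto (1727) than with Xenome (79.3), and XenofilteR gave 80.1. In NDUFA7, 77.9% of the transcript is shared with a protein-coding gene without a symbol (ENSG00000167774), whose mean was 2.99 with Xenome and 686 with Kallisto. The next gene, NDUFA13, also known as GRIM-19, had 580 with Xenome, 579 with XenofilteR and 4302 with Kallisto, 7.27-fold higher, and shares 83.9% of its transcript with ENSG00000258674 (56.2 with Xenome and 88.8 with Kallisto).

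NDUFB8, an accessory subunit of the membrane arm, had 564, 572 and 2377 with Xenome, XenofilteR and Kallisto, 4.13-fold higher with Kallisto. It shares 72.0% of its transcript with ENSG00000255339, which had 3.77 with Xenome and 128 with Kallisto. NDUFA11 had 862, 856 and 2746, 3.12-fold higher, and shares 68.2% with ENSG00000267740, which had 45.9 with Kallisto. The exons of NDUFA13, NDUFB8 and NDUFA11 printed above lie in the shared part.

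NDUFC2 and NDUFA9 differed with a smaller overlap. NDUFC2 had 1298, 1292 and 4282, 3.24-fold higher with Kallisto, and shares 19.7% of its transcript (428 bases) with NDUFC2-KCTD14, a gene that joins it to its neighbour, which had 0.581 with Xenome and 148 with Kallisto. NDUFA9, an accessory subunit that binds NADPH, had 1178, 1175 and 2542, 2.12-fold higher, and shares 11.7% (976 bases) with ENSG00000255639, listed at 4.35 with Xenome and 2032 with Kallisto. It also shares 606 bases with ENSG00000272921, which had 1345 with Kallisto. NDUFV3 was the exception, with 4466, 4449 and 14678, 3.22-fold higher with Kallisto and no base shared with an exon of another gene. Of its 50-base windows, 13.6% have a copy elsewhere in the genome, a share exceeded or approached by NDUFV2 (32.1%), NDUFB3 (15.1%), NDUFB1 (14.2%) and NDUFB4 (13.1%), of which the last 3 did not differ between pipelines by over 1.5 times.

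**Figure D2:**
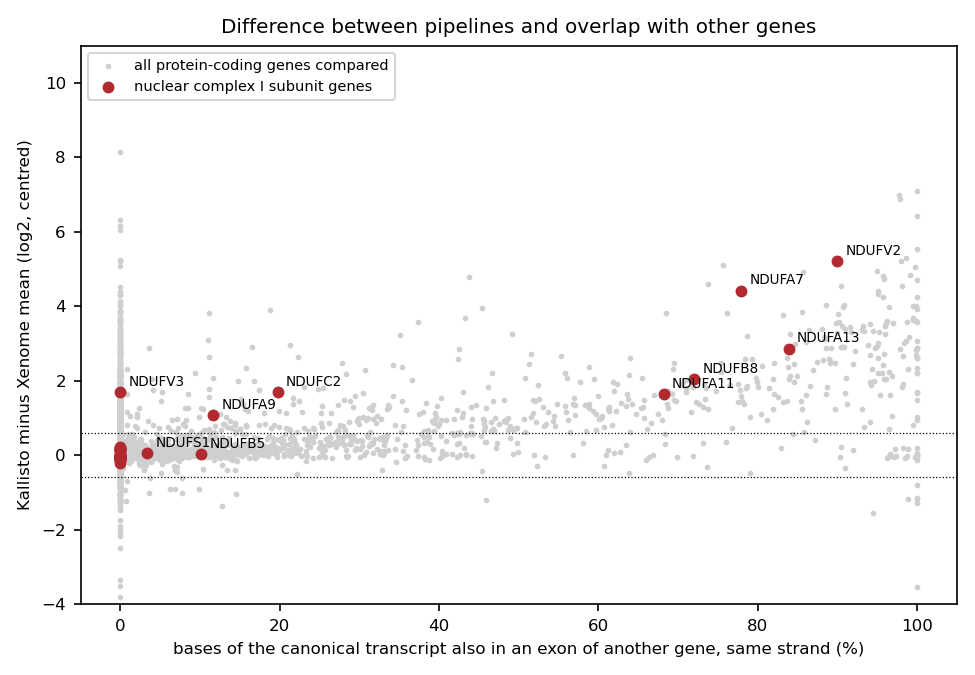
Difference between the Kallisto and Xenome means (log2, centred on all protein-coding genes compared) against the share of the canonical transcript that lies in an exon of another gene on the same strand (%), for the 38 subunit genes (red) and all protein-coding genes compared (grey). Dotted lines mark 1.5 times in either direction. The 5 subunit genes with 68.2% to 90.0% overlap lie above the upper line, and NDUFV3 is above it with no overlap.

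The share of genes that differed rose with the overlap over all protein-coding genes as well. Without overlap 581 of 10080 genes (5.76%) had a Kallisto mean over 1.5 times the Xenome mean, with an overlap under 20% it was 88 of 840 (10.5%), and with an overlap of 20% or more it was 411 of 651 (63.1%), where the median fold was 1.94. Of the subunit genes it was 1 of 29 without overlap, 2 of 4 under 20% and 5 of 5 at 20% or more, where the median fold was 7.27. The limit of 20% was chosen after the data were seen. An overlap of 20% or more was held by 13.2% of the subunit genes and by 5.63% of all protein-coding genes compared. NDUFB5 (10.1% overlap, 1.01-fold) and NDUFS1 (3.35%, 1.04-fold) share exon bases on the same strand and differed little. The genes they share these bases with have no mean with any of the 3 pipelines, so whether the authors counted them is not known. Exons of genes on the opposite strand also hold part of some subunit genes, for which no share over all protein-coding genes is given here. Among them, NDUFA7 (11.7% on the opposite strand, shared with RPS28), NDUFB8 (2.51%) and NDUFC2 (2.54%) differed by over 1.5 times. These genes also share bases on the same strand. The 4 genes with the highest shares on the opposite strand were NDUFS7 (51.3%, 1.16-fold), NDUFA2 (27.4%, 0.97-fold), NDUFB2 (24.3%, 1.01-fold) and NDUFB9 (23.9%, 1.07-fold). Whether the overlap made the pipelines differ was not tested, and neither pipeline gives the true level of a gene.

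The Xenome and XenofilteR pipelines used the same aligner and counter. Xenome removed mouse reads before the alignment, and XenofilteR removed them after reads had been aligned to both genomes. Their means differed by a median of 0.0004 on the log2 scale over protein-coding genes. The XenofilteR mean was over 10% above the Xenome mean in 5 of 38 subunit genes (13.2%), against 1.96% of 11647 protein-coding genes compared, and over 10% under it in 0 of 38, against 0.258%. The limit of 10% was chosen after the data were seen. The other 33 genes lay between -1.45% (NDUFA6) and 3.60% (NDUFA10).

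NDUFS6, a zinc-binding subunit at the base of the N module, had 3124 with Xenome and 3698 with XenofilteR, 18.4% higher. NDUFAB1 was 16.1% higher with XenofilteR, NDUFS3 15.9%, NDUFA12 13.5% (2658 and 3017) and NDUFS4 12.3% (1816 and 2040). For these genes Kallisto gave 3609 for NDUFS6, 4275 for NDUFAB1, 3664 for NDUFS3, 2976 for NDUFA12 and 2088 for NDUFS4. All 5 Kallisto means were nearer to XenofilteR than to Xenome.

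Of the 31-base sequences of the canonical transcript, 8.66% in NDUFAB1, 7.98% in NDUFS4, 3.82% in NDUFS3 and 3.20% in NDUFA12 also occur in mouse transcripts, within the stretches printed above among others, and 0% do in NDUFS6. The median was 3.82% over these 5 genes and 0% over the other 33, against 3.48% over all protein-coding genes with a difference over 10% and 1.01% over the others. Of the genes that did not differ by over 10%, NDUFV1 has 4.77% and differed by 0.20%. NDUFV2 has the highest share of all (11.6%) and differed by -0.02%, between means (256 with both pipelines) that lay far under its Kallisto mean (9711). The part of shared sequence in these differences was not tested.

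**Figure D3:**
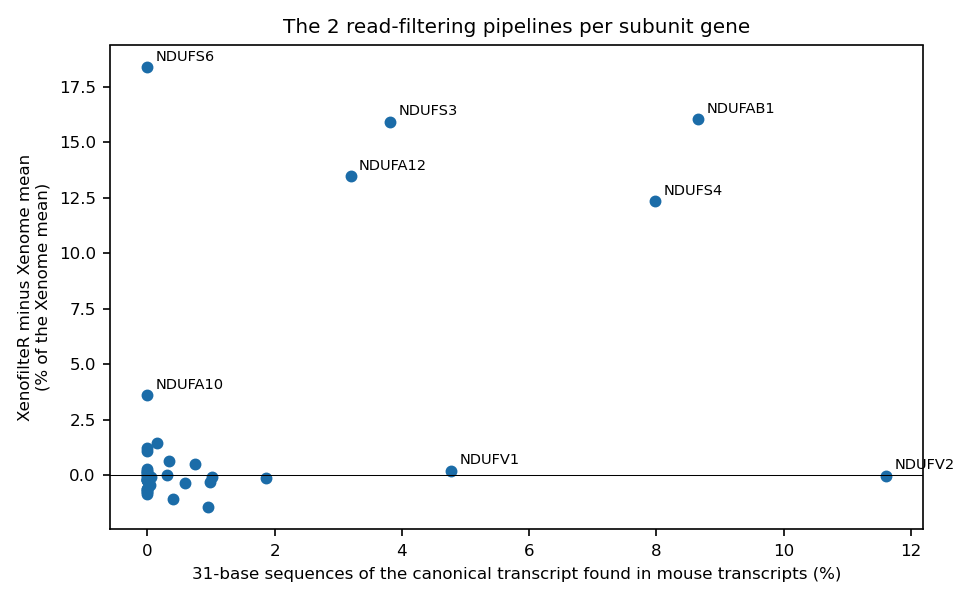
Difference of the XenofilteR mean from the Xenome mean (% of the Xenome mean) against the share of 31-base sequences of the canonical transcript that occur in mouse transcripts (%), for 37 subunit genes. The 5 genes between 12.3% and 18.4% stand apart from the others, and NDUFV2, with 11.6% of its sequences shared, lies at -0.02%.

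Pseudogene copies of subunit genes are a further place where reads can be assigned. The table lists 28 pseudogenes named after 14 of the 38 genes, none with a Kallisto value. NDUFB2-AS1, a long non-coding RNA gene that overlaps NDUFB2, had 111 with Xenome and no Kallisto value either. A missing Kallisto value therefore does not show that such a gene had no reads. Only 3 of the pseudogenes had a Xenome mean over 10. NDUFV2P1 (chr19:53223973-53224879, as the table gives it) had 260 with Xenome and 218 with XenofilteR, which is 102% of the Xenome mean of NDUFV2. NDUFA5P11 had 185 and 174, 2.61% of NDUFA5, and NDUFB4P12 had 41.96 and 37.2, 0.320% of NDUFB4. The other 25 could be solved to whole reads, 2 to 109 reads over all libraries, and the highest of them, NDUFB8P2, had a mean of 5.59 with Xenome, 0.991% of that of NDUFB8.

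The other genes of the respiratory chain are given for the scale of these levels. Per kilobase the median of the 7 mitochondrially encoded complex I subunits was 147526 with Kallisto and 125074 with Xenome, and the lowest of them (77687 and 74005) was above the highest nuclear subunit gene. Medians with Kallisto were 4162 for 4 genes of complex II, 4587 for 9 of complex III, 10870 for 10 of complex IV and 8117 for 16 of complex V, against 4090 for the nuclear complex I genes. With Xenome they were 3466, 3381, 10286 and 7288, against 3425. Complex III thus lay above nuclear complex I with Kallisto and was about level with it with Xenome. The 14 complex I assembly factors, which build the complex and do not stay in it, had 1452 with Kallisto and 1466 with Xenome. Among these lists the Kallisto mean was over 1.5 times the Xenome mean (9.37% of all protein-coding genes compared) in 1 of 4 complex II genes (SDHA, 1712 and 9734 with Xenome and Kallisto), 2 of 9 of complex III (UQCR11 and UQCR10) and 2 of 16 of complex V (ATP5PO, 2196 and 6415, and ATP5MG). It was so in 0 of 10 complex IV genes, 0 of 14 assembly factors and 0 of 7 mitochondrial subunits. Together the 38 genes made up 0.340% of the sum of all means with Xenome, 0.341% with XenofilteR and 0.385% with Kallisto. Without the 8 genes that differed it was 0.318%, 0.320% and 0.294%. The share with Kallisto was thus above that with Xenome over all 38 genes and under it over the 30. Each share is of that pipeline's own sum over the genes it lists, and the pipelines do not list the same genes. The shares therefore do not tell whether the 30 genes had lower means with Kallisto.

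**Figure D4:**
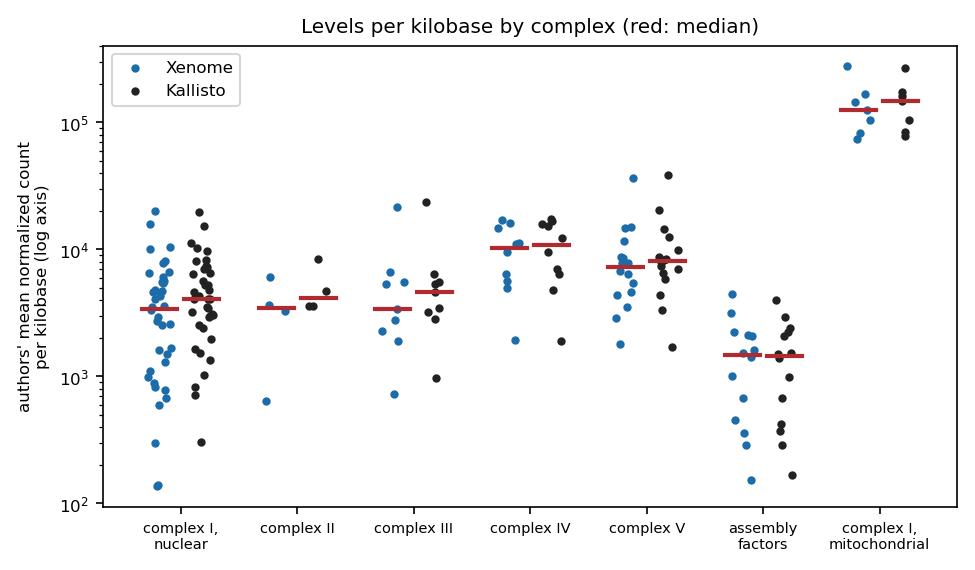
Mean normalized count per kilobase of canonical transcript (log axis) with Xenome (blue) and Kallisto (black) for the 38 nuclear complex I subunit genes, complexes II to V, complex I assembly factors and the mitochondrially encoded complex I subunits. Each point is a gene and red bars are medians, 3425 and 4090 for the nuclear complex I genes.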

How the data were processed

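RNA was sequenced from C4-2B alone, the co-culture and MC3T3-E1 alone (3 libraries each). The libraries were stranded. Per the study's methods, the authors either selected human reads with Xenome and then ran HISAT2 against GRCh38, or ran HISAT2 against GRCh38 and GRCm38 and then dropped mouse reads with XenofilteR. Both were counted by featureCounts. In the third pipeline reads were quantified with Kallisto on joint human and mouse GENCODE transcripts. The authors passed each set of counts to DESeq2. Strand and multi-gene settings of the counting are not given in the sources used here. featureCounts by default leaves out reads that fall in exons of more than 1 gene, whereas Kallisto shares them out. Whether the authors kept this default is not known, and its part in the differences above was not tested. The deposited table holds per pipeline the authors' mean normalized count and, in 15 further columns, their own comparison of the groups (fold change, its error, statistic and p-values), which were not used. No column of single libraries was used, so no test between groups, replicate error or exact interval is given.

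Of 41734 rows, 21 repeated a gene and were dropped. The minimum mean was 50 in both pipelines compared, and the threshold was 1.5 times after centring. Exon overlap and transcript length came from GENCODE release 44, shared sequence from release M21 transcripts and from GRCh38. The study's methods do not name the annotation release behind the authors' means. Depth was solved from the lowest means as whole reads (all 9132 genes used with Xenome had 1 solution, as did 9037 with XenofilteR), a step tested on simulated data. Not every member is named. Means with all 3 pipelines are given for most core subunits, for the 3 highest genes per kilobase and for those past the threshold. Members, lists and tests were chosen with earlier results of these data known. Python 3.11.15, numpy 2.4.6, pandas 2.3.3, numba 0.67.0 and matplotlib 3.10.9 were used. The values of 1 gene of the set enter the counts and medians and are not reported here by themselves.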

Additional observations from a re-analysis of the deposited data

How the results depend on the processing

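The median mean normalized count of the 38 genes was 3417 over the median of the pipelines, and it was 3178 with Xenome, 3637 with Kallisto and 3633 without the 8 genes that differed between Kallisto and Xenome. The ratio of the highest to the lowest gene was 164 and became 10.1 with Kallisto, 146 per kilobase and 8.62 without those 8 genes. The median difference between Kallisto and Xenome was 0.02 on the log2 scale without centring. The count of 8 genes past 1.5 times was the same without centring, with no minimum, with a minimum of 10 and with XenofilteR in place of Xenome. Against the median of the 3 pipelines, the level of 28 of 38 genes moved with Kallisto alone by more than the counting error. It was 6 with Xenome and 4 with XenofilteR. Since Xenome and XenofilteR share aligner and counter, that median mostly lay with them, so these counts do not rank the pipelines. The counting error comes from sampling reads and does not measure differences between pipelines run on the same reads. The count of 5 genes with a higher XenofilteR mean was 5 at a limit of 5% and 3 at 15%. No paired analysis was possible because the table used has no column per library, and no replicate could be left out for the same reason. Depth limits the counting error, and the cause of each shift was not tested.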

Other observations

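Promoters of 32 of the 38 genes were matched in RefSeq sequences (GRCh38.p14), from 250 bases before to 50 after the start. Their median GC content was 61.8% (40.3% to 74.7%), against 58.3% over 27305 promoters. Letters were searched on both strands. TATAAA was found in 3 of 32 (9.38%; NDUFA2, NDUFA7 and NDUFA9) against 12.0% of all promoters, and CCGGAAG, which ETS factors bind, in 5 (15.6%; NDUFA1, NDUFA13, NDUFB7, NDUFS1 and NDUFS3) against 10.7%. The NRF1 motif was found in NDUFA8 and NDUFB4 (6.25%) against 1.36%, and the YY1 motif in NDUFA9 and NDUFS4 (6.25%) against 0.916%. These are matches of letters and no test was made.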
